A study of Homo sapiens with 15 samples.

Results

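Collagen is crosslinked by a small set of enzymes, and 9 of their genes were followed in MH7A cells: the lysyl oxidases LOX, LOXL1, LOXL2, LOXL3 and LOXL4, the lysyl hydroxylases PLOD1, PLOD2 and PLOD3, and the collagen chaperone SERPINH1. They were chosen by name, as 9 of the 16872 genes tested, and each was read from the 1 transcript cluster (the probe set of a gene) that the platform annotation gave it. MH7A is an immortalised human line of synovial cells, derived from the joint lining of a patient with rheumatoid arthritis, and all arrays come from this 1 line. Gene expression was measured on 15 microarrays in 5 conditions, and each of 3 experiments held 1 array per condition. The conditions were IL-1β with GlcN and alloxan (GlcN+alloxan), IL-1β with GlcN (GlcN), IL-1β with alloxan (alloxan), IL-1β alone (IL-1β), and no addition (resting). IL-1β, an inflammatory cytokine, was given at 15 pg/ml for 13 h in every condition except resting. GlcN (glucosamine), an amino sugar that feeds the O-GlcNAc modification of proteins, was used at 5 mM, starting 2.5 h before IL-1β. Alloxan, an inhibitor of the enzyme that attaches O-GlcNAc, was added at 5 mM for a 30 min preincubation and kept on at 2 mM, doses that the protocol states for the combined treatment.

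Lysyl hydroxylases act in the endoplasmic reticulum, where they hydroxylate lysines of newly made collagen chains, while SERPINH1 (HSP47) holds the folding triple helix. After secretion, the copper-dependent lysyl oxidases oxidise lysines and hydroxylysines of collagen, and lysines of elastin, to the aldehydes from which crosslinks form. In the joint lining, synovial fibroblasts secrete much of this matrix. LOX is the founding member with roles in both collagen and elastin, LOXL1 is known for elastic fibres, and LOXL2, LOXL3 and LOXL4 carry scavenger receptor domains. PLOD1 mainly hydroxylates lysines of the helix, PLOD2 those of the telopeptides, and PLOD3 also adds sugars to hydroxylysine.

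GlcN lowered LOX, LOXL2, PLOD1 and PLOD2, and alloxan lowered LOX and LOXL2 and raised LOXL1 and SERPINH1, each relative to IL-1β alone and each by less than 1.5-fold. These calls come from a fit with the experiment as a block. Without the block, or with only the groups compared in the fit, none of these calls held. PLOD2 and LOX are known targets of hypoxia-inducible factors, of whose core motif only the form ACGTG is marked here. SERPINH1 is a known target of heat shock factor, which binds inverted GAA repeats. Their promoter windows are shown for that reason, with that of PLOD1 as a lysyl hydroxylase for comparison. The windows come from RefSeq (build GRCh38.p14) and run from 250 bases before to 50 bases after the gene start that lies farthest upstream, read 5′ to 3′ on the strand of the gene. Capitals mark ACGTG on either strand (written CACGT where it lies on the other strand) and GAANNTTC or TTCNNGAA, of which either is its own reverse complement. The windows are LOX at chr5:122078210-122078509 (minus strand), PLOD1 at chr1:11934467-11934766 (plus strand), PLOD2 at chr3:146161135-146161434 (minus strand) and SERPINH1 at chr11:75562003-75562302 (plus strand).
LOX: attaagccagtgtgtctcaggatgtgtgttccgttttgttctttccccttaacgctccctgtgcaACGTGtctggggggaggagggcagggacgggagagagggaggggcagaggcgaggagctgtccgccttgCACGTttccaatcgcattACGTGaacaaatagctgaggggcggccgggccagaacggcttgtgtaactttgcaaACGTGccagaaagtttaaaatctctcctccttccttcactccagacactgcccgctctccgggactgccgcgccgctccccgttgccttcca
PLOD1: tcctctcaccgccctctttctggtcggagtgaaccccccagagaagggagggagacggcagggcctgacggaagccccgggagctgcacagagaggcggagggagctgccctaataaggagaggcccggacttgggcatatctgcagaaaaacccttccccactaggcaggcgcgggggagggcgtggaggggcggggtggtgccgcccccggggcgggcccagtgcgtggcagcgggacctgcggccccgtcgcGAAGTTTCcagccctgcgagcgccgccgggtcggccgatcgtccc
PLOD2: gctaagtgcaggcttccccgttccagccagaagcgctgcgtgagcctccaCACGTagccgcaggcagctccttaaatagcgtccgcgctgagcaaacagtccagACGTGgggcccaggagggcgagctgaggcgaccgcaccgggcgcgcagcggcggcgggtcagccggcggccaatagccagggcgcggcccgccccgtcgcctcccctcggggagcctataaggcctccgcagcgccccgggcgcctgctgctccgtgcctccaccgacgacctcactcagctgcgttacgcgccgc
SERPINH1: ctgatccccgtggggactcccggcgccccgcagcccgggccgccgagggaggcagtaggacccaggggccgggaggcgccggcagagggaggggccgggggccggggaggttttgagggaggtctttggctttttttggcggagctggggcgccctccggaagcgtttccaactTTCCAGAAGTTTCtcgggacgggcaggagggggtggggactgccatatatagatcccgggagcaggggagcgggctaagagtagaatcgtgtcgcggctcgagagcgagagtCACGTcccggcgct

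ACGTG occurred 4 times in the LOX window, 2 times in that of PLOD2 and 1 time in that of SERPINH1. It was found in 3 of the 8 genes of the set with a window read here, and in 21.4% of 35116 RefSeq windows of this length. No window was read for LOXL2. SERPINH1 held 2 matches of GAANNTTC or TTCNNGAA, starting at positions -76 and -71 relative to the gene start and overlapping each other, and PLOD1 held 1. This motif was found in 2 of the 8 genes and in 13.5% of all windows. These motifs were picked for capitals from 8 that were searched, after their matches had been seen. The other motifs were each counted on both strands and apart from one another. They were GCGTG (2 of 8 genes, 36.5% of windows), CCAAT (2 of 8, 34.6%), GGGCGG (5 of 8, 45%), TATAAA (0 of 8, 11.5%), TGANTCA (0 of 8, 7.71%) and TGATGNAA (0 of 8, 3.62%). GCGTG, which differs from ACGTG only in its first base and is left in lower case, occurred 2 times in the PLOD1 window and 1 time in that of PLOD2. The PLOD1 window is therefore not one without such motifs. A match describes the letters of the window and says nothing about binding in these cells.

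The deposited log2 signals differed far more between experiments than between conditions, with array medians of 6.18 to 6.21 in the first experiment, 7.14 to 7.19 in the second and 7.49 to 7.54 in the third. Conditions were therefore compared within experiments, with the experiment as a block in limma, and the SD given as an error is that of the differences in the 3 experiments. All experiments used 1 line, so that p-values measure how differences between conditions vary over these 3 experiments. This spread is pooled over all conditions and moderated over genes, and differences in level between experiments are removed. Of 10 fibroblast-type markers, 6 lay above the array median on all 15 arrays. PDPN, CDH11, FAP and S100A4 did not, so the fibroblast-type markers were met only in part. Of the other markers, 1 of 5 for macrophages (CD68) lay above the median on all arrays, and 0 of 3 for lymphocytes, 0 of 3 for endothelial cells and 0 of 3 for epithelial cells. In these lysates, fewer cells of a kind and less RNA per cell cannot be told apart.

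**Figure D1:**
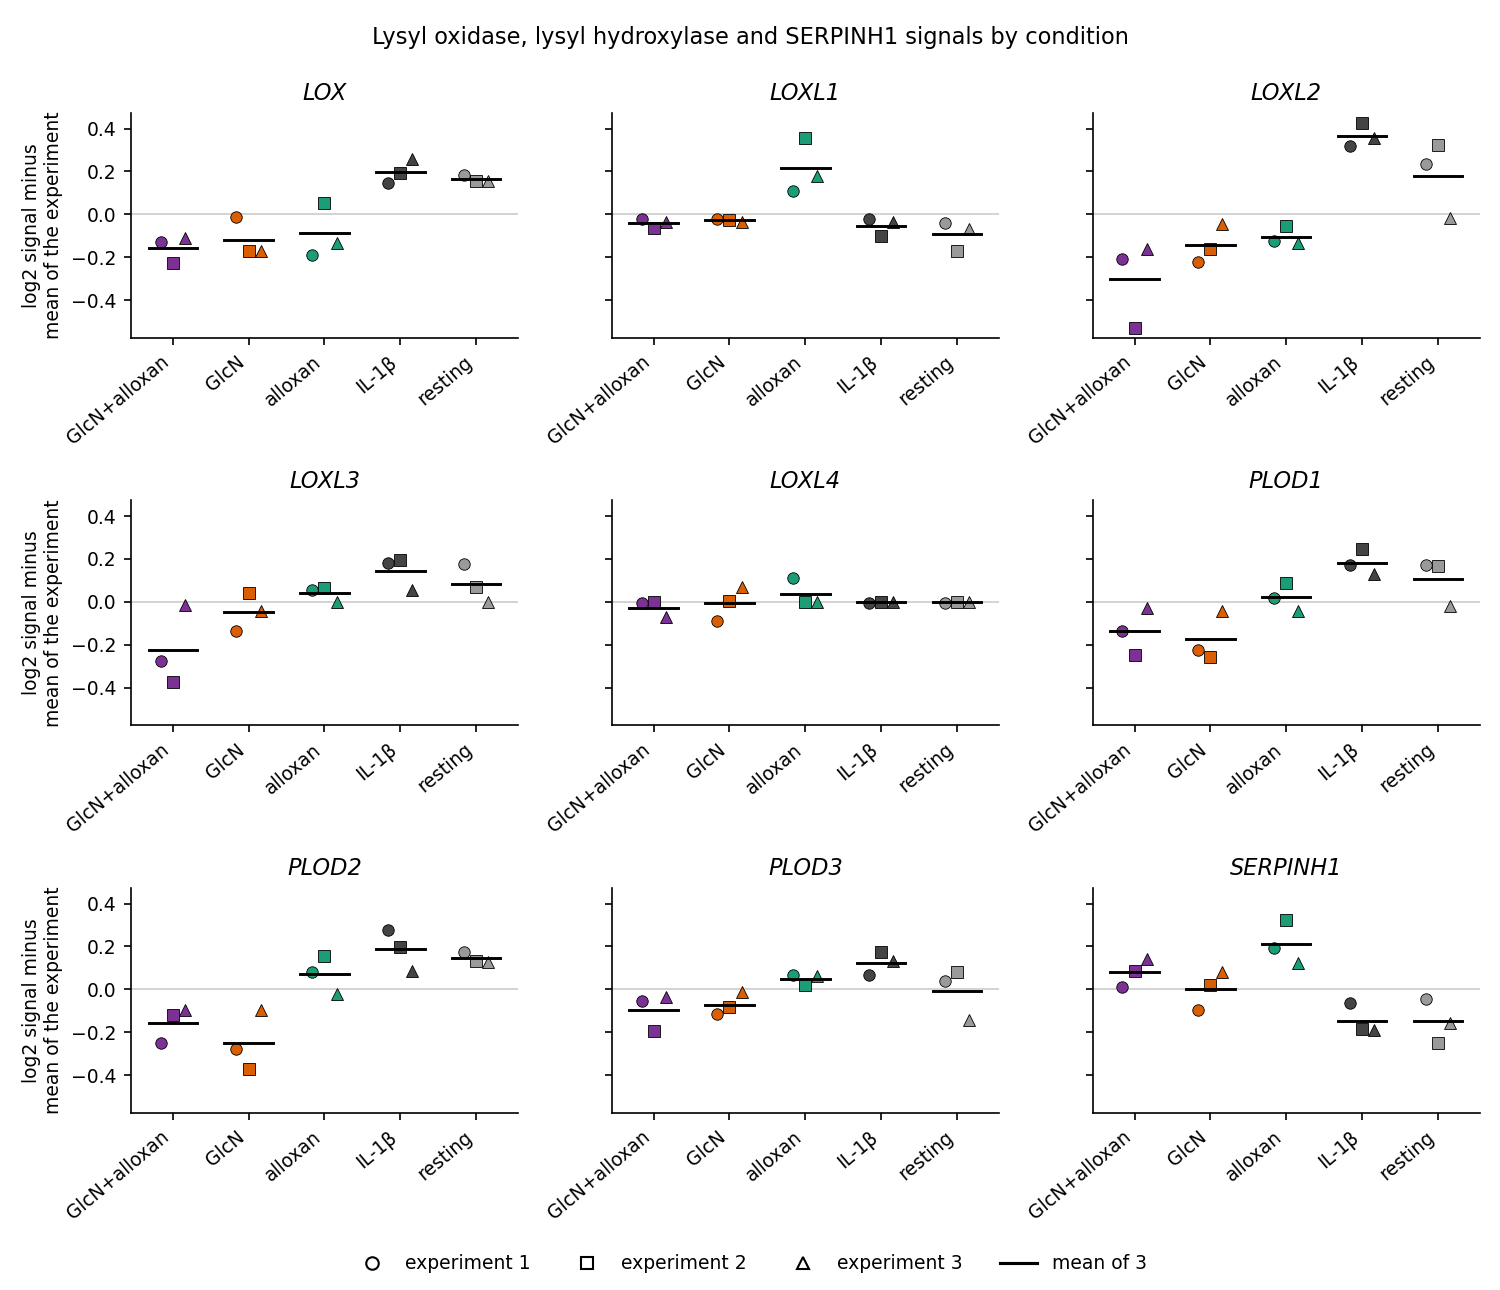
Log2 signal of the 9 genes on each of the 15 arrays, after subtracting the gene's mean in that experiment. The 5 conditions run along the horizontal axis, symbols give the experiment and bars the mean of 3. For LOX the highest array with GlcN+alloxan, GlcN or alloxan lies at 0.05, below the lowest IL-1β array, and LOXL2 lies below 0 on all 9 of those arrays.

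No crosslinking gene was shown to differ between IL-1β alone and resting cells. None of the 9 genes passed the threshold (adjusted p under 0.05 in limma), where 0% of all genes did in either direction. The study reports TNFRSF9, C3 and IL6 as raised by IL-1β in its own test, and these did not pass here either. A missing call in this comparison therefore does not show a missing response. At an unadjusted p under 0.05, 0 of the 9 genes passed, against 5.79% of all genes. LOXL2 had the largest difference of the 9, at 0.19 ± 0.16 log2 units (SD, n = 3, limma adjusted p = 0.871), and it was higher with IL-1β in 3 of 3 experiments. Most of that difference lay in experiment 3, at 0.37. PLOD3 was next at 0.13 ± 0.13 (SD, n = 3, limma adjusted p = 0.859). The 95% interval of the difference reached up to 0.42 for LOXL2 and, as the next highest of the 9, up to 0.27 for PLOD3.

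GlcN lowered 4 of the 9 crosslinking genes relative to IL-1β alone, namely the lysyl oxidases LOX and LOXL2 and the lysyl hydroxylases PLOD1 and PLOD2, and raised 0. Over all genes, 6.62% were lower and 5.29% higher in limma with the block. The median log2 fold change of the 9 genes was -0.19, against 0.01 over all genes. These calls rest on the spread of all 15 arrays with the experiment as a block. Without the block, or with it and only the 2 groups compared in the fit, 0 of the 9 genes passed.

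LOXL2 had the largest fall of the 9 with GlcN. Its log2 signals with GlcN in experiments 1, 2 and 3 were 9.99, 10.86 and 11.61, against 10.53, 11.45 and 12.00 with IL-1β. The GlcN array was the lower of the pair in each experiment, and LOXL2 fell to 0.703-fold, with a log2 fold change of -0.51 ± 0.10 (SD, n = 3, limma adjusted p = 0.0091). LOX had 9.92, 10.75 and 11.56 with GlcN, against 10.08, 11.12 and 11.99 with IL-1β. LOX was also lower in each experiment, least in the first, with a log2 fold change of -0.32 ± 0.14 (SD, n = 3, limma adjusted p = 0.0120). This call was lost without the GlcN array of experiment 2 (adjusted p = 0.0659) or of experiment 3 (adjusted p = 0.0516).

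Among the lysyl hydroxylases, PLOD2 fell furthest with GlcN. It had log2 signals of 10.52, 11.08 and 11.45 with GlcN in the 3 experiments, against 11.07, 11.65 and 11.63 with IL-1β. The difference was -0.56 and -0.57 in experiments 1 and 2 and -0.18 in experiment 3. The fall was to 0.739-fold, with a log2 fold change of -0.44 ± 0.22 (SD, n = 3, limma adjusted p = 0.00485). PLOD1 had 10.50, 11.40 and 12.10 with GlcN, against 10.89, 11.90 and 12.27 with IL-1β. It too differed least in experiment 3, and its log2 fold change was -0.36 ± 0.17 (SD, n = 3, limma adjusted p = 0.0136). The PLOD1 call was lost without the GlcN array of experiment 2 (adjusted p = 0.0777) or the IL-1β array of that experiment (0.0714). LOXL2 and PLOD2 passed whichever of the 6 arrays compared was left out. PLOD3 was lower with GlcN in 3 of 3 experiments but did not pass, at -0.19 ± 0.06 (SD, n = 3, limma adjusted p = 0.0850).

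SERPINH1 did not pass with GlcN and had a positive difference. Its log2 signals were 11.12, 12.19 and 12.75 with GlcN, against 11.15, 11.99 and 12.47 with IL-1β. The difference was -0.03 in experiment 1, 0.20 in experiment 2 and 0.27 in experiment 3, with a mean of 0.15 ± 0.16 (SD, n = 3, limma adjusted p = 0.252). LOXL3 had -0.19 ± 0.12 (SD, n = 3, limma adjusted p = 0.212), LOXL1 0.03 ± 0.04 and LOXL4 0.00 ± 0.08.

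**Figure D2:**
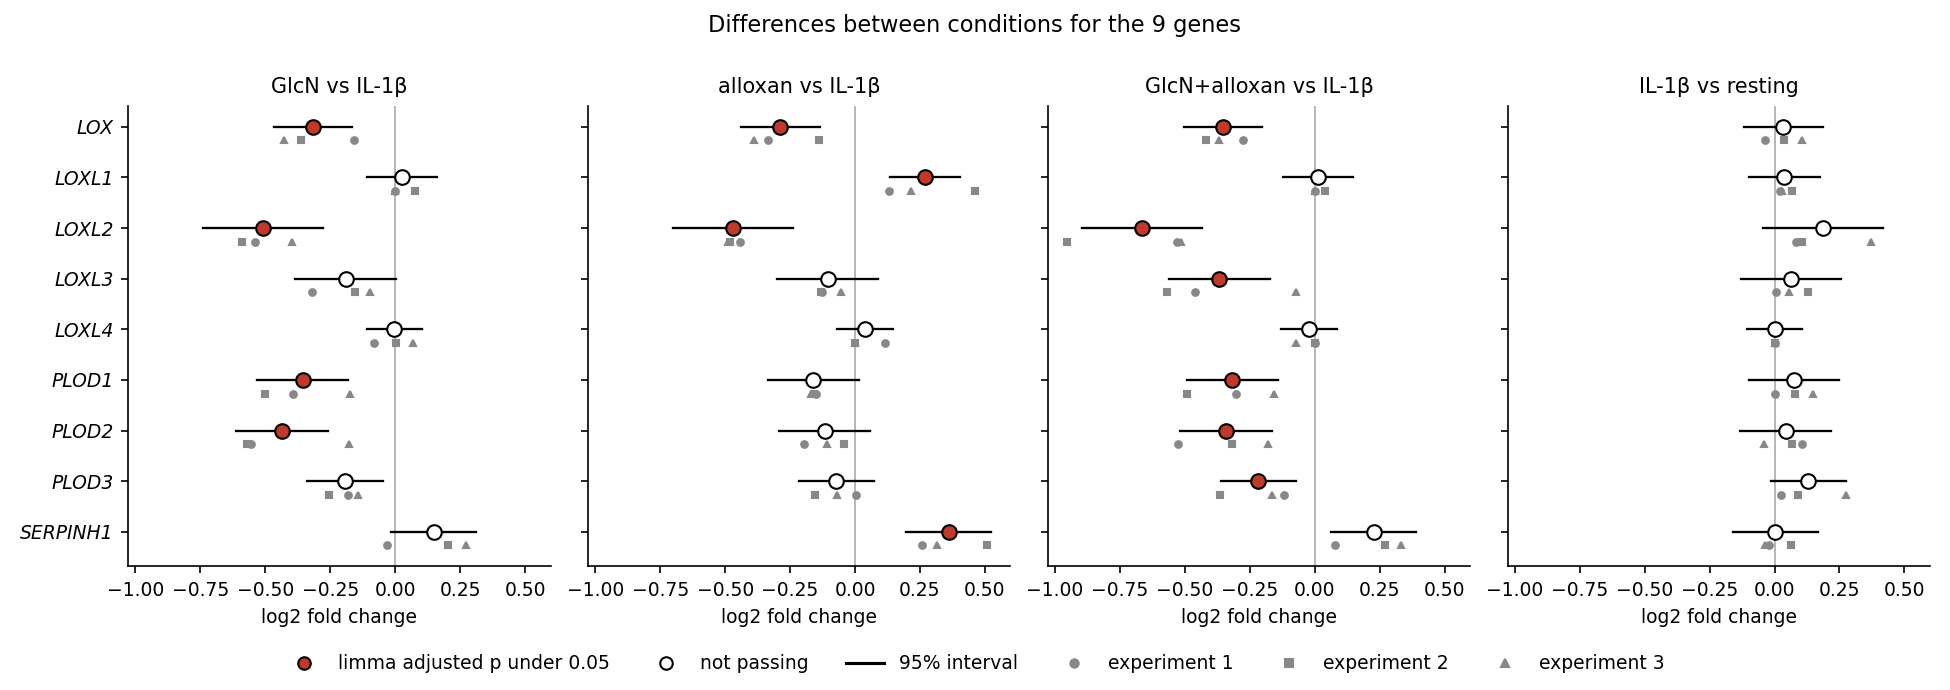
Log2 fold changes of the 9 genes for GlcN, alloxan and GlcN+alloxan against IL-1β and for IL-1β against resting. Large points are limma estimates with 95% intervals, filled where the adjusted p was under 0.05, and small grey symbols are the differences within each experiment. LOX and LOXL2 are filled on the left in the 3 treatments, at -0.67 for LOXL2 with GlcN+alloxan, and LOXL1 and SERPINH1 are filled on the right with alloxan.

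Alloxan without GlcN moved the set in both directions. LOX and LOXL2 fell, and LOXL1 and SERPINH1 rose. Over all genes, 7.21% were lower and 6.13% higher in limma with the block, and of the 9 genes 2 passed in each direction. Without the block, or with it and only the 2 groups compared in the fit, 0 of the 9 genes passed. The IL-1β arrays are the same as in the comparison of GlcN with IL-1β, and the fold changes for the 2 comparisons are given side by side and not as separate evidence.

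SERPINH1 rose to 1.28-fold with alloxan. Its log2 signals with alloxan were 11.41, 12.50 and 12.79 in experiments 1, 2 and 3, against 11.15, 11.99 and 12.47 with IL-1β. It was higher in each experiment, with a log2 fold change of 0.36 ± 0.13 (SD, n = 3, limma adjusted p = 0.00923), and passed whichever of the 6 arrays was left out. LOXL1 had 9.30, 10.31 and 10.84 with alloxan, against 9.17, 9.85 and 10.63 with IL-1β. Its alloxan array was the highest of the 5 in each experiment, and most clearly in experiment 2. The log2 fold change was 0.27 ± 0.17 (SD, n = 3, limma adjusted p = 0.0149). That call was lost without the IL-1β array of experiment 2, at an adjusted p = 0.0700, and the value was 0.18 without the alloxan array of that experiment. In experiments 1 and 3, LOXL1 took only 3 distinct values over the 5 arrays, since the arrays with GlcN+alloxan, GlcN and IL-1β had identical values.

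LOXL2 had log2 signals of 10.09, 10.97 and 11.51 with alloxan, against 10.53, 11.45 and 12.00 with IL-1β. The fall was nearly equal in the 3 experiments, at -0.47 ± 0.03 (SD, n = 3, limma adjusted p = 0.0129). LOX had 9.75, 10.98 and 11.60 with alloxan, against 10.08, 11.12 and 11.99 with IL-1β, which gave a log2 fold change of -0.29 ± 0.13 (SD, n = 3, limma adjusted p = 0.0186). It was lower in each experiment, least in experiment 2. LOXL2 was lost without the alloxan array of experiment 1 (adjusted p = 0.0544) or 3 (0.0564) or the IL-1β array of experiment 2 (0.0591). LOX was lost without any of those 3 arrays, at 0.0915, 0.0811 and 0.0582, and without the IL-1β array of experiment 3, at 0.0715.

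The lysyl hydroxylases did not pass with alloxan. PLOD1 had -0.16 ± 0.01 (SD, n = 3, limma adjusted p = 0.235), PLOD2 -0.12 ± 0.08 (adjusted p = 0.415) and PLOD3 -0.07 ± 0.08 (adjusted p = 0.567). The alloxan signals of PLOD2 were 10.88, 11.61 and 11.52, and those of PLOD1 were 10.74, 11.74 and 12.10. For either gene each of these lay below the IL-1β array of its experiment. GlcN and alloxan were also compared directly, a comparison taken up after the data had been seen. PLOD2 was lower with GlcN than with alloxan, at -0.32 ± 0.23 log2 units (SD, n = 3, limma adjusted p = 0.0191), and LOXL1 at -0.24 ± 0.13 (adjusted p = 0.0201), so that 2 of the 9 genes passed as lower and 0 as higher, against 7.83% and 7.66% of all genes. Without the block, or with only these 2 groups in the fit, 0 passed. PLOD1 did not pass, at -0.20 ± 0.18 (SD, n = 3, limma adjusted p = 0.130), although it did without the GlcN array of experiment 3 (-0.28, adjusted p = 0.0492). PLOD2 was lost without either array of experiment 1 or of experiment 2 (adjusted p from 0.0612 to 0.0893). LOXL1 was lost without the GlcN array of experiment 2 or 3 (0.0571 and 0.0667) or the alloxan array of experiment 2 (0.0571), and without that alloxan array its value was -0.15. Because its GlcN and IL-1β arrays were tied in experiments 1 and 3, the LOXL1 differences there restate those of alloxan against IL-1β.

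GlcN+alloxan lowered 6 of the 9 genes relative to IL-1β alone and raised 0, where 8.47% of all genes were lower and 9.06% higher in limma with the block. This comparison too was taken up after the data had been seen. The 6 genes were LOX, LOXL2 and LOXL3 and all 3 lysyl hydroxylases. The median log2 fold change of the 9 genes was -0.32, against 0.00 over all genes. Without the block, or with only these 2 groups in the fit, 0 of the 9 genes passed.

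LOXL2 had log2 signals of 10.00, 10.49 and 11.49 with GlcN+alloxan in experiments 1, 2 and 3, against 10.53, 11.45 and 12.00 with IL-1β. It fell to 0.630-fold, with a log2 fold change of -0.67 ± 0.25 (SD, n = 3, limma adjusted p = 0.0012), the largest change of the 9 genes in any comparison made here. LOX had 9.80, 10.70 and 11.62 with GlcN+alloxan, against 10.08, 11.12 and 11.99 with IL-1β. Its log2 fold change was -0.35 ± 0.07 (SD, n = 3, limma adjusted p = 0.0043), and both genes passed whichever of the 6 arrays was left out. LOXL3 had 7.22, 8.55 and 9.27 with GlcN+alloxan, against 7.68, 9.12 and 9.34 with IL-1β. The difference was -0.46 and -0.57 in experiments 1 and 2 and -0.07 in experiment 3, with a log2 fold change of -0.37 ± 0.26 (SD, n = 3, limma adjusted p = 0.0140). LOXL3 was lost without either array of experiment 1 or of experiment 2 (adjusted p from 0.0572 to 0.0720).

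Of the lysyl hydroxylases, PLOD2 had 10.55, 11.33 and 11.45 with GlcN+alloxan, against 11.07, 11.65 and 11.63 with IL-1β, a log2 fold change of -0.34 ± 0.18 (SD, n = 3, limma adjusted p = 0.0121). PLOD1 had 10.59, 11.41 and 12.11 with GlcN+alloxan, against 10.89, 11.90 and 12.27 with IL-1β, a log2 fold change of -0.32 ± 0.17 (SD, n = 3, limma adjusted p = 0.0171). Each was lower with GlcN+alloxan in 3 of 3 experiments. PLOD2 was lost without either array of experiment 1 (0.0599 and 0.0614), and PLOD1 without the GlcN+alloxan array of experiment 1 (0.0517) or either array of experiment 2 (0.0917 and 0.0817). PLOD3 had 9.71, 10.61 and 11.29 with GlcN+alloxan, against 9.83, 10.98 and 11.46 with IL-1β. It passed narrowly, at -0.22 ± 0.13 (SD, n = 3, limma adjusted p = 0.0425), and lost its call whichever of the 6 arrays was left out (adjusted p from 0.0529 to 0.200).

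SERPINH1 had 11.23, 12.26 and 12.81 with GlcN+alloxan, against 11.15, 11.99 and 12.47 with IL-1β. It was higher in 3 of 3 experiments, at 0.23 ± 0.13 (SD, n = 3, limma adjusted p = 0.0601), and did not pass. LOXL1 was at 0.01 ± 0.02 (SD, n = 3), with a 95% interval from -0.12 to 0.15.

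Alloxan added to GlcN changed 0 of the 9 genes (limma with the block, where 3.27% of all genes rose and 3.52% fell). At an unadjusted p under 0.05 also 0 of the 9 passed, against 22.3% of all genes. The largest differences were LOXL3 at -0.18 ± 0.22 and LOXL2 at -0.16 ± 0.19 (SD, n = 3 each). Most of this lay in experiment 2, with differences of -0.41 and -0.36. The 95% interval ran from -0.37 to 0.02 for LOXL3 and from -0.39 to 0.07 for LOXL2. Without the GlcN+alloxan array of experiment 3, LOXL3 was lower with GlcN+alloxan, at -0.31 (limma adjusted p = 0.0374).

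GlcN added to alloxan lowered 1 of the 9 genes, LOXL1, and raised 0, where 1.67% of all genes were lower and 1.86% higher. The log2 signals of LOXL1 were 9.17, 9.89 and 10.63 with GlcN+alloxan, against 9.30, 10.31 and 10.84 with alloxan. It was lower in each experiment, at -0.25 ± 0.15 (SD, n = 3, limma adjusted p = 0.0463). In experiments 1 and 3 the GlcN+alloxan and IL-1β arrays had identical LOXL1 values. There the difference is that of alloxan against IL-1β with the sign turned, so this call is not separate evidence of a GlcN effect. The call held in 1 of 6 fits with an array left out, the one without the alloxan array of experiment 1 (adjusted p from 0.0298 to 0.177). Without the alloxan array of experiment 2 the value was -0.17, so that array carried much of it. Without the filter on dim genes the call was lost (adjusted p = 0.0514), as it was without the block. LOXL3 was at -0.26 ± 0.22 (SD, n = 3, limma adjusted p = 0.152), and passed only without the GlcN+alloxan array of experiment 3 (-0.39, adjusted p = 0.0149).

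The test of whether the GlcN effect differed with alloxan present passed for 0 of the 9 genes, as a limma interaction with the block, where 0.0119% of all genes passed with a positive and 0.0593% with a negative difference. At an unadjusted p under 0.05, where 11% of all genes passed, LOX (0.25), LOXL1 (-0.28) and SERPINH1 (-0.28) passed, with adjusted p = 0.401, 0.313 and 0.382. The sign of each was the same in 3 of 3 experiments. For LOX the GlcN difference was -0.07 with alloxan and -0.32 without it. For SERPINH1 it was -0.13 with alloxan and 0.15 without it, and for LOXL1 -0.25 and 0.03. With the ties of LOXL1 in experiments 1 and 3, its interaction there again restates the difference of alloxan against IL-1β with the sign turned. None of the 3 passed after adjustment over all genes.

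Across the 5 conditions the mean level of LOX, LOXL2, LOXL3, PLOD1 and PLOD2 was highest with IL-1β, followed by resting and then alloxan. PLOD3 was highest with IL-1β, followed by alloxan and then resting. GlcN+alloxan had the lowest mean of LOX, LOXL2, LOXL3 and PLOD3, and GlcN the lowest mean of PLOD1 and PLOD2. SERPINH1 ran the other way, highest with alloxan, then GlcN+alloxan, GlcN, IL-1β and resting. Neighbours in these orders mostly did not differ beyond their spread. The exceptions were LOX, lower with alloxan than in resting cells at -0.25 (limma adjusted p = 0.0313, where 13.9% of all genes passed), and LOXL1, where GlcN and alloxan differed as given above. The LOX pair was taken up from the order after the data had been seen. Its call was lost without the block (adjusted p = 1) and with only these 2 groups in the fit (0.171). It was also lost with 5 of the 6 arrays left out (from 0.0810 to 0.148), and kept without the alloxan array of experiment 2. In resting cells LOX had log2 signals of 10.12, 11.08 and 11.89, and LOXL2 had 10.44, 11.34 and 11.63. For PLOD1 the resting signals were 10.89, 11.82 and 12.12, and for PLOD2 10.97, 11.58 and 11.67. The resting signals of SERPINH1 were 11.17, 11.93 and 12.51, close to those with IL-1β in each experiment.

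LOXL4 gave little to read. Its signal lay between the 47.0th and 52.8th percentile of all clusters on its array, and it took only 2 distinct values over the 5 arrays of experiment 2, spanning 0.004 log2 units. Its range was 0.20 in experiment 1 and 0.14 in experiment 3, with 3 distinct values in each. LOXL3 lay between the 63.8th and 74.1st percentile, and the other 7 genes at or above the 81.6th. PLOD3 spanned 0.18, 0.37 and 0.27 log2 units over the 5 conditions of experiments 1, 2 and 3.

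The genes that fell varied together over the 15 arrays once the mean of each experiment had been removed. Pearson's r was 0.903 for PLOD1 with PLOD2, 0.895 for LOXL2 with PLOD1 and 0.857 for LOX with LOXL2. LOXL1 and SERPINH1 varied together, at an r of 0.795. SERPINH1 ran against LOX (-0.661) and LOXL2 (-0.602), and LOXL4 had no r beyond 0.28 with any of the others. These are descriptions over arrays that share conditions, experiments and normalization, so the points are not independent. Differences between conditions stay in these values, so for genes grouped by their fall r in part restates that fall.

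**Figure D3:**
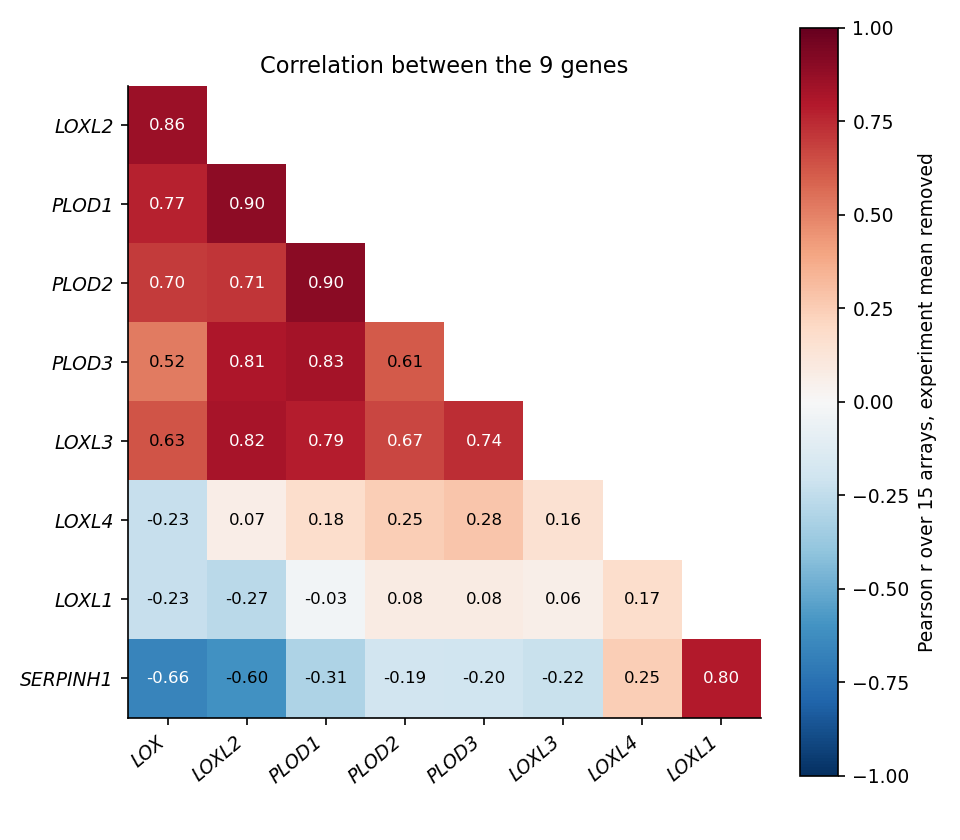
Pearson correlation between the 9 genes over 15 arrays after removing the mean of each experiment, in red for positive and blue for negative values. LOX, LOXL2, LOXL3 and the 3 lysyl hydroxylases form a block with values from 0.52 to 0.90, and LOXL1 and SERPINH1 stand outside it.

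By the same measure, the 3 most similar of all genes tested were named for each gene. LOX was closest to KPNB1, a nuclear import receptor (r = 0.974), and to HSDL2 and TRIP13. LOXL2 was closest to THBS1, a secreted matrix glycoprotein (0.960), and to KCNK6 and ADAMTSL4. PLOD2 was closest to LDHA, the lactate dehydrogenase subunit (0.963), and to ZNF738 and DIO2. PLOD1 was closest to the plexin PLXNA3 (0.959), LTBP4 and EBP, and LOXL3 to LTBP3, which binds latent TGF-β (0.974), EXT2 and SREBF1. LOXL1 was closest to DEFB113 (0.967) and to VASP and ZYX, which act at actin-rich adhesions. SERPINH1 was closest to DEF8 (0.955), the receptor tyrosine kinase ERBB2 and GPR162. PLOD3 was closest to FBXL8 (0.936), B4GALNT1 and TMEM161A, and LOXL4 to MALL (0.989), SLC51A and TNK2-AS1. Ties in the LOXL4 and LOXL1 values limit what such an r can show.

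Of the 10 genes of fibrillar collagens and elastin, GlcN lowered 5 and raised 0, with a median log2 fold change of -0.31, and alloxan lowered 6 and raised 0, with a median of -0.43. COL3A1 was at -0.68 ± 0.37 with GlcN (SD, n = 3, limma adjusted p = 0.0104), COL1A2 at -0.53 ± 0.29, COL1A1 at -0.46 ± 0.30 and COL11A1 at -0.38 ± 0.21. With alloxan, COL11A1 was at -0.65 ± 0.14 (SD, n = 3, limma adjusted p = 0.0014), COL1A2 at -0.82 ± 0.30, COL1A1 at -0.68 ± 0.14 and COL5A2 at -0.47 ± 0.14. With GlcN+alloxan, 6 of the 10 were lower and 0 higher, with a median of -0.74. In that comparison COL11A1 was at -0.85 ± 0.18, COL1A1 at -0.90 ± 0.20, COL5A2 at -0.84 ± 0.31 and COL1A2 at -0.99 ± 0.28 (SD, n = 3 each). This list and those that follow come from the fit with the block and are described by their counts beside the shares of all genes given above, without a test of the list. They were chosen with earlier results of these data and the study's values in view. COL3A1, TLL1 and TGM2, for example, stand in the study's list of genes lowered by GlcN, so the counts were in part known in advance. Without the block, 0 genes of the 5 lists passed in any comparison given here. With the block and only the groups compared in the fit, 0 genes of the 5 lists passed for GlcN or for alloxan against IL-1β, while TGM2 and VEGFA passed for GlcN+alloxan against IL-1β.

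Of 14 genes for procollagen processing, activation of lysyl oxidases and other crosslinks, GlcN lowered 4 and alloxan 4, and 0 were raised by either. The metalloproteinase TLL1, which cleaves procollagen and the LOX proenzyme, was at -1.17 ± 0.33 with GlcN (SD, n = 3, limma adjusted p = 2.1e-04) and -0.85 ± 0.19 with alloxan. POSTN, a matrix protein known from mouse cells to promote LOX activation, was at -0.99 ± 0.27 with GlcN and -1.10 ± 0.19 with alloxan (SD, n = 3 each). The transglutaminase TGM2, which makes another kind of crosslink, was at -0.58 ± 0.24 and -0.45 ± 0.18. PCOLCE, an enhancer of procollagen cleavage, passed among these with GlcN (-0.42 ± 0.16), and ADAMTS3, a procollagen N-proteinase, with alloxan (-0.46 ± 0.19). The other 10 genes in each comparison did not pass.

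Of 15 tested enzymes and chaperones that work beside the lysyl hydroxylases, GlcN lowered 4 and raised 3, and alloxan lowered 1. P3H3, a prolyl hydroxylase family member that acts with lysyl hydroxylase on collagen, was at -0.32 ± 0.10 with GlcN (SD, n = 3, limma adjusted p = 0.0035). MIA3, which helps export procollagen, was at 0.29 ± 0.08, the protein disulfide isomerase P4HB at 0.16 ± 0.03 and the cyclophilin PPIB at 0.16 ± 0.02 (SD, n = 3 each). With alloxan the gene that passed was FKBP10, a partner of PLOD2, at -0.22 ± 0.04 (SD, n = 3, limma adjusted p = 0.0300). FKBP10 was also lower with GlcN, at -0.23 ± 0.15 (SD, n = 3, limma adjusted p = 0.0259).

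**Figure D4:**
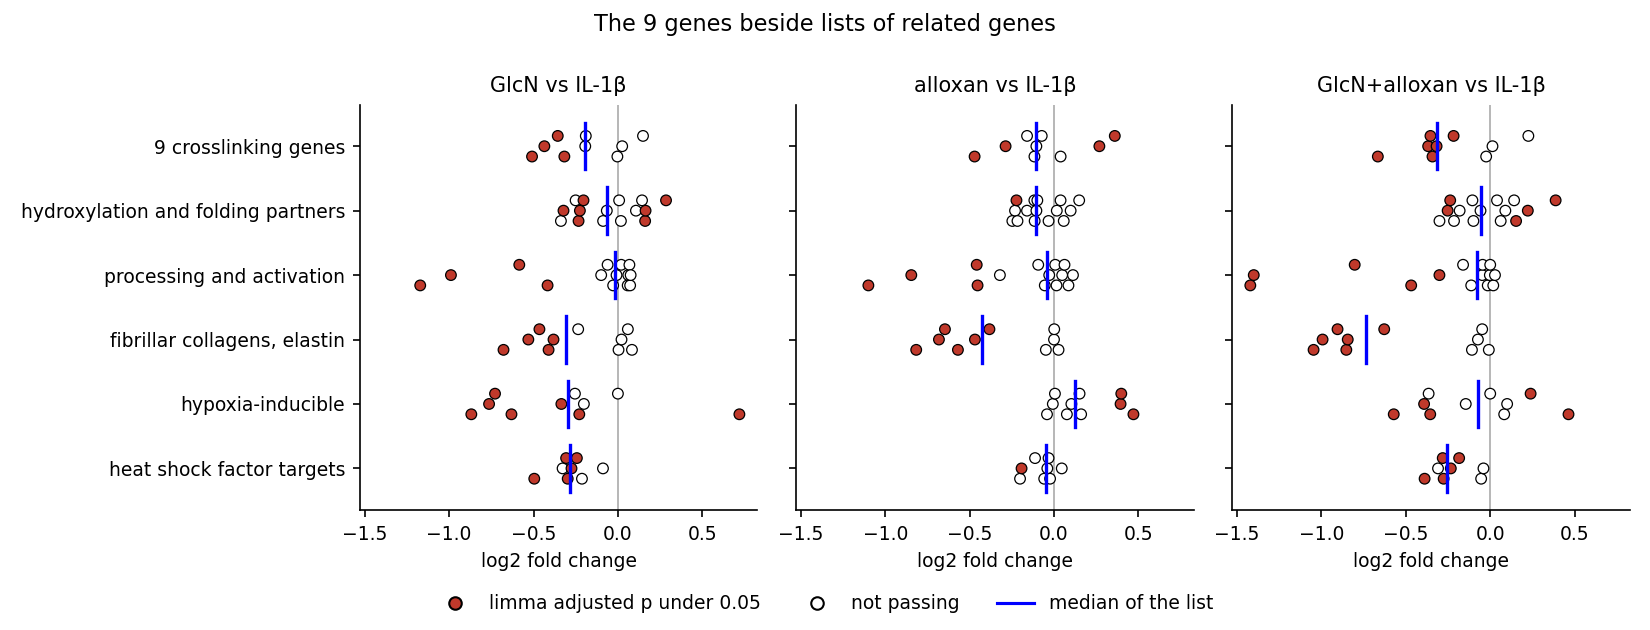
Log2 fold changes of the 9 crosslinking genes and of 5 lists of related genes for GlcN, alloxan and GlcN+alloxan against IL-1β. Each point is a gene, filled where the limma adjusted p was under 0.05, and the blue bar is the median of the list. The hypoxia-inducible list has a median of -0.29 with GlcN and 0.13 with alloxan, while that of the fibrillar collagens and elastin lies below 0 in the 3 panels.

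Hypoxia-inducible genes outside the set are given beside PLOD2 and LOX. Of 10 tested, GlcN lowered 6 and raised 1, and alloxan raised 3 and lowered 0. The study itself lists ADM, PDK1, PFKFB4 and SLC2A1 as lowered and VEGFA as raised by GlcN, so the GlcN count was in part known when the list was chosen. With GlcN, the pyruvate dehydrogenase kinase PDK1 was at -0.87 ± 0.17, the glucose transporter SLC2A1 at -0.63 ± 0.21 and the glycolytic regulator PFKFB4 at -0.73 ± 0.25 (SD, n = 3 each). The gene that rose was the angiogenic factor VEGFA, at 0.72 ± 0.16 (SD, n = 3, limma adjusted p = 3.3e-05). With alloxan, KDM3A (0.40 ± 0.14), NDRG1 (0.47 ± 0.16) and BNIP3 (0.39 ± 0.25) rose. In the direct comparison, 8 of the 10 were lower with GlcN than with alloxan and 1 was higher, while PLOD2 was lower as given above and LOX did not pass, at -0.03 ± 0.20 (SD, n = 3, limma adjusted p = 0.844). With only these 2 groups in the fit, 5 of the 10 passed, and without the block 0 did.

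Heat shock factor targets outside the set are given beside SERPINH1. Of 8 tested, GlcN lowered 5 and raised 0, and alloxan lowered 1 and raised 0. With GlcN the chaperones HSPA8 (-0.24 ± 0.06), HSP90AA1 (-0.31 ± 0.13), HSPH1 (-0.50 ± 0.27) and the cochaperone BAG3 (-0.30 ± 0.11) were lower (SD, n = 3 each). With alloxan HSP90AA1 was lower, at -0.19 ± 0.02 (SD, n = 3, limma adjusted p = 0.0483), while SERPINH1 was higher.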

How the data were processed

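RNA from the MH7A cell line was hybridised to Affymetrix Human Gene 1.0 ST arrays, 15 in all. According to the submitters' processing notes, the authors used Affymetrix Expression Console and its RMA method, and the values they deposited are log2 signals of transcript clusters. Tool versions were not given in the sources used here. The deposited values were used without further normalization. No depth exists for arrays, and their number limits the precision.

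Condition and experiment number came from the sample labels. Of 33297 clusters, 19460 carried 1 symbol, 1754 several (left out) and 12083 none, and 19429 were named through a gene ID in RefSeq (GRCh38.p14). Of the 18417 symbols, each read from its brightest cluster, 16872 were tested, namely those at or above the 20th percentile of the array on 3 or more arrays. The highest correlation of 2 arrays was 0.996, and 0 pairs were identical. Conditions were compared with lmFit and eBayes of limma 3.58.1 under R 4.3.3 (all 15 arrays, 5 group means, experiment as a block, 8 residual and 11.1 total degrees of freedom), with Benjamini-Hochberg adjustment over all genes and a threshold of 0.05. Tests are two-sided. The fit was tested on simulated data. Figures were drawn with matplotlib 3.10.9 in Python 3.11.15.

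Same-numbered arrays deviated together from their group means (r between 0.621 and 0.848 for 30 pairs, while 75 pairs of different number had r between -0.723 and -0.068), so the numbers pair the arrays. The study's own t-test was unpaired. The block was set as the primary design because arrays compare only within an experiment. It was set with earlier results of these data known, which had shown that the unpaired fit calls almost nothing on the deposited values. The 9 genes and all lists were likewise chosen with earlier results known, and the lists also with the study's values in view. GlcN+alloxan against IL-1β, GlcN against alloxan, and alloxan against resting for LOX were taken up after the data had been seen.

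Genes named in the text are the 9, up to 4 genes with the smallest p past the threshold from each of 5 lists per comparison, and the 3 genes most correlated with each of the 9. For comparisons other than those of GlcN and alloxan with IL-1β, most list results of the fit with the block are not given. The exceptions are the substrates with GlcN+alloxan and the counts of hypoxia-inducible genes for GlcN against alloxan. COLGALT2, CA9, HSPA1A and HSPA1B were not tested. Alternatives were no block, quantile normalization of all arrays, no filter, a 50th percentile filter, averaging the clusters of a gene, an intensity trend with robust moderation, only the groups compared, the methods' t-test and leaving out each array in turn.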

Additional observations from a re-analysis of the deposited data

How the results depend on the processing

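With no replicate block, 0 of the 9 genes passed in each of the 8 comparisons for which all 9 genes were recomputed, since differences between experiments then counted as error (median standard error 0.596 log2 units, against 0.0647 with the block). With the block and only the groups compared in the fit, and with the methods' t-test before or after Benjamini-Hochberg adjustment, 0 of the 9 genes also passed in each of these comparisons, the t-test having been run for 7 of them and not for the interaction. For GlcN against IL-1β over all genes, the block gave 893 higher and 1117 lower, against 3 and 1 without it, 1 and 0 over only the groups compared, and 25 and 26 by the methods' t-test before adjustment. For alloxan against IL-1β these counts were 1034 and 1216 with the block, 0 and 0 without it, 0 and 0 over only the groups compared, and 2 and 7 by the t-test. For GlcN+alloxan against IL-1β they were 1529 and 1429, 0 and 1, 124 and 152, and 11 and 17. For GlcN against alloxan they were 1292 and 1321, 5 and 0, 373 and 297, and 24 and 33. For GlcN+alloxan against GlcN they were 551 and 594, 0 and 0, 0 and 0, and 4 and 3, and for GlcN+alloxan against alloxan 314 and 281, 0 and 0, 0 and 0, and 9 and 6. The interaction gave 2 higher and 10 lower with the block, 0 and 0 without it, 4 and 7 over only the groups compared, 7 and 16 after quantile normalization, 8 and 11 with a filter at the 50th percentile and 4 and 11 with an intensity trend. After Benjamini-Hochberg adjustment the t-test called 0 genes in each comparison it was run for. The t-test was run on the deposited log2 values, whose level differs between experiments. Its counts are not those of the study, which lists more genes as changed by GlcN with its own t-test. The study also required a 1.5-fold change and tested a differently filtered set of entries. The counts here have no fold cut-off, so the lists are not like for like.

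Without a filter on dim genes, LOXL1 in GlcN+alloxan against alloxan no longer passed (adjusted p = 0.0514), which left 0 of the 9 genes. With a filter at the 50th percentile or an intensity trend with robust moderation, SERPINH1 passed in GlcN+alloxan against IL-1β, as 1 of the 9 genes (adjusted p = 0.0421 and 0.0482). The mean over clusters changed no call of the 9 genes, each of which has 1 cluster. After quantile normalization, values near 0 changed sign: SERPINH1 in IL-1β against resting was at -0.0011, LOXL4 in GlcN against IL-1β at 0.0089 and PLOD1 in GlcN+alloxan against GlcN at -0.0011.

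With each array left out in turn, the number of the 9 genes called lower ran from 2 to 4 for GlcN against IL-1β, from 0 to 2 for alloxan, from 2 to 5 for GlcN+alloxan, from 0 to 2 for GlcN against alloxan, from 0 to 1 for GlcN+alloxan against GlcN and from 0 to 1 against alloxan. The number called higher ran from 1 to 2 for alloxan and was 0 in all fits of the other comparisons. Over all genes, the fits with an array left out called 487 to 1017 genes higher and 646 to 1253 lower for GlcN against IL-1β, 531 to 974 and 733 to 977 for alloxan against IL-1β, 163 to 853 and 376 to 702 for GlcN+alloxan against GlcN, 131 to 198 and 121 to 251 for GlcN+alloxan against alloxan, 966 to 1469 and 1035 to 1223 for GlcN+alloxan against IL-1β, 885 to 1142 and 851 to 1416 for GlcN against alloxan, 0 to 25 and 2 to 14 for the interaction, and 0 to 5 and 0 to 1 for IL-1β against resting. Of 1116 values of the 9 genes under all alternatives, 971 kept their direction and side of the threshold, 108 lost the threshold, 5 gained it and 32 changed sign, of which 0 had passed. Signs changed with an array left out as follows, each as a range of log2 fold changes. For IL-1β against resting, LOX ran from -0.0038 to 0.066, LOXL1 from -0.0096 to 0.070, PLOD1 from -0.0023 to 0.115, PLOD2 from -0.013 to 0.107 and SERPINH1 from -0.059 to 0.069. For GlcN against IL-1β, LOXL1 ran from -0.0048 to 0.045 and LOXL4 from -0.050 to 0.049, and for alloxan against IL-1β, LOXL4 from -0.0069 to 0.062. For GlcN+alloxan against GlcN, LOX ran from -0.070 to 0.030, LOXL1 from -0.023 to 0.0014, LOXL4 from -0.073 to 0.026, PLOD1 from -0.029 to 0.121 and PLOD3 from -0.060 to 0.039. For GlcN+alloxan against alloxan, LOX ran from -0.128 to 0.021, and for the interaction, LOXL3 from -0.201 to 0.022. For GlcN+alloxan against IL-1β, LOXL1 ran from -0.017 to 0.033 and LOXL4 from -0.040 to 0.0041, and for GlcN against alloxan, LOX from -0.097 to 0.058, LOXL2 from -0.100 to 0.011 and LOXL4 from -0.089 to 0.010. The cause of these changes was not tested.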
